A study of Homo sapiens with 12 samples.

Results

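The control siRNA duplexes siEGFP and siFFluc were compared with each other in A549 and in SW780 cells on 8 of the 12 arrays of the series. Samples were chosen by line and duplex as their titles name them, which gave 2 arrays of each duplex in each line. The 4 arrays of the remaining duplex, siKDM3A, which targets the histone demethylase gene KDM3A, were kept out of the tests reported here, apart from 1 alternative fit with all 12 arrays, and are set beside the results as levels only. A549 is a human lung carcinoma line, grown here in RPMI1640, and SW780 is a human urinary bladder carcinoma line, grown in Leibovitz's L-15. All groups received a duplex at 100 nM in a cationic lipid reagent for 24 h, so the lipid and the dose are shared by every array. The series has no mock-transfected or untransfected group in the labels used here, and a difference between the duplexes therefore does not say which of them moved a gene. The labels do not tell whether arrays of a group stand for separate cultures, and the p-values below are set against array-to-array spread that may be technical alone.

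EGFP (enhanced green fluorescent protein) and FFluc (firefly luciferase) are reporter proteins that human cells do not encode, and duplexes against them are used as controls because no human transcript matches them in full. A duplex is loaded into an Argonaute protein, and bases near the 5′ end of the loaded strand, the seed, can pair with 3′ UTRs of unrelated transcripts and lower them as a microRNA would. Double-stranded RNA can also be bound by sensors such as RIG-I, TLR3 and the kinase PKR, which switch on interferon and NF-κB target genes. The sequences of the duplexes were not used here, so no gene below could be set against a seed.

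Signals are MAS5 intensities on a linear scale as the authors deposited them, and differences are siEGFP minus siFFluc on log2(signal + 16). On that scale 1 is a doubling for bright genes and understates the ratio of dim ones. Each gene was represented by the probe set of highest mean over the 8 arrays, and 14067 genes were tested in 1 limma fit with 4 group means. Adjusted p-values are limma's with the Benjamini-Hochberg adjustment over those genes, and 0.05 was the threshold. Every array had the same trimmed mean of 500.1, and the number of arrays limits the precision. Replicate arrays correlated at 0.982 to 0.987 across genes, and the SD of their log2 difference was 0.375 and 0.371 in A549, 0.411 for SW780 with siEGFP and 0.483 for SW780 with siFFluc. In SW780 the siFFluc arrays also had the higher bright end: the 3′ probe set of GAPDH, a glycolytic enzyme gene used as an array control, read 41241 and 38203 there against 32220 and 27810 with siEGFP, a difference in the bright end of the scale that is given again where it touches a gene group. KDM3A itself lay between 1300 and 1519 on the 4 control arrays of A549 and between 359 and 433 on those of SW780, with an averaged difference of -0.09 ± 0.08 (SE) and an adjusted p of 0.602 between the control duplexes. Of 15 urothelial markers, 11 read over 100 on all 4 control arrays of SW780 and 9 on all 4 of A549, with sums of 73041 to 99776 and 29911 to 33961. GATA3, a urothelial transcription factor, read 10803 to 16049 in SW780 and 310 to 420 in A549, while UPK3A, a uroplakin, was at 4.2 to 9.3 in SW780 and the basal keratin KRT5 at 90.9 to 291 there against 5476 to 5976 in A549. Of 9 lung markers, 2 read over 100 on all 4 control arrays of A549: SFTPB, a surfactant protein gene, at 161 to 211 and ABCA3, a surfactant lipid transporter, at 159 to 227. In SW780 2 did so as well, SFTPB at 117 to 142 and LAMP3 at 403 to 554, against 67.7 to 117 for LAMP3 in A549. The sums of the lung list were 593 to 679 in A549 and 727 to 955 in SW780, so this list did not mark A549 as the lung line. NKX2-1, the lung lineage factor, read 2.5 to 26 in A549 and 26.3 to 93.8 in SW780. The ratio of 3′ to 5′ signal of GAPDH, a measure of RNA integrity, lay between 0.914 and 0.999 on the 8 arrays. Of 5 leukocyte markers, ITGAM read over 100 on all 4 control arrays of A549 (101 to 115) and none did so in SW780, and PTPRC, which all leukocytes carry, read 3.9 to 24 on the 8 arrays. Of 7 fibroblast markers, 2 read over 100 on all 4 control arrays of A549 and 1 on all 4 of SW780.

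The promoter stretches below belong to 5 interferon-stimulated or NF-κB target genes that differed between the duplexes and whose RefSeq entry (GRCh38.p14) held the motif of their group, and they show the elements by which these gene groups are known. IFI27 also held its motif and is not printed, and IL1A and IL1B held none. IFIT2, OAS2 and OASL had no entry and were not searched. Capitals mark GAAANNGAAA, the core of the interferon-stimulated response element, in the IFIT1, IFIT3 and MX1 stretches, and GGGNNTTTCC, a core of the κB element, in those of NFKBIA and TNFAIP3, each searched on both strands. All but that of MX1 end before the start site. The stretches lie at chr10:89392467-89392569 (IFIT1, plus strand), chr10:89327801-89327924 (IFIT3, plus strand), chr21:41420559-41420588 (MX1, plus strand, just after the start site), chr14:35404781-35404870 (NFKBIA, minus strand) and chr6:137867152-137867253 (TNFAIP3, plus strand).
IFIT1: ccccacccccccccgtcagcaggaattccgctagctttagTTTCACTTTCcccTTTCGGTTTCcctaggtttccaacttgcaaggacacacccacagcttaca
IFIT3: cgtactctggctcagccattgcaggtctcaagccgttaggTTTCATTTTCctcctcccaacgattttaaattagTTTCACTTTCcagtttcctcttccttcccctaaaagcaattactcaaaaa
MX1: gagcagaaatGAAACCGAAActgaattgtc
NFKBIA: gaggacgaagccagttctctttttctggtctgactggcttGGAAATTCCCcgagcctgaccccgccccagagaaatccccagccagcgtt
TNFAIP3: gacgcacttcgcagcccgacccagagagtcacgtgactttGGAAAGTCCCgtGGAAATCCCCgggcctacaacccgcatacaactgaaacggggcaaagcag
The matches of IFIT1 begin at bases -116 and -103 from the start site and those of IFIT3 at -156 and -122. That of MX1 begins at base 12, that of NFKBIA at -81 and those of TNFAIP3 at -67 and -55. GAAANNGAAA was found in 996 of 27305 promoters of the table, each 300 bases long (3.65%), in 314 of the 11324 that belong to tested genes (2.77%) and in 18 of 27 tested members of the interferon list (66.7%). GGGNNTTTCC was found in 523 of the 27305 (1.92%), in 248 of the 11324 (2.19%) and in 9 of 19 tested members of the NF-κB list (47.4%). These are letter matches in the stated windows, and the list members were chosen for the pathways whose elements were searched.

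Averaged over the lines, 604 of the 14067 genes differed between the control duplexes (4.29%), 319 higher with siEGFP (2.27%) and 285 lower (2.03%). An unadjusted p under 0.05 was reached by 2681 genes (19.1%). In A549 alone 260 genes passed the threshold (1.85%), 139 higher (0.988%) and 121 lower (0.86%) with siEGFP, and in SW780 alone 382 (2.72%), 191 in each direction (1.36%). The averaged count depended on single arrays. It was 294 and 276 without the first and the second A549 siEGFP array, 253 and 260 without the A549 siFFluc arrays, 318 and 262 without the SW780 siEGFP arrays, and 751 and 1511 without the first and the second SW780 siFFluc array. For A549 alone the count lay between 86 and 156 without any 1 of the A549 or SW780 siEGFP arrays or of the A549 siFFluc arrays, and was 412 and 414 without the SW780 siFFluc arrays. For SW780 alone it was 126 to 143 without any 1 A549 array, 101 without its first and 52 without its second siEGFP array, 1596 without its second siFFluc array and 44 when its 4 arrays were fitted with their own spread, a setting under which A549 had 385.

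A difference was taken to recur where it passed the averaged threshold and both siEGFP arrays lay on the same side of both siFFluc arrays in each line. This held for 563 genes (4%), of which 300 were higher with siEGFP (2.13%) and 263 lower (1.87%). Of these, 115 also passed the threshold in each line alone in the same direction (0.818% of all genes), 78 higher (0.554%) and 37 lower (0.263%) with siEGFP, and no gene passed it in opposite directions in the lines. Most recurring differences were small: 199 of the 300 and 197 of the 263 were under 1.5-fold, and 27 of the higher and 12 of the lower genes reached 2-fold. The median was 0.47 among the genes higher with siEGFP and -0.40 among those lower. Of the 300, 297 are protein-coding genes, as are 259 of the 263. The 563 became 249 to 290 without any 1 of the 6 arrays other than those of SW780 with siFFluc, and 1143 without the second of these. Arrays of the duplexes did not overlap in either line, in the same direction, for 2275 genes (16.2%), and in opposite directions for 855 (6.08%). Within 1 line, in either direction, they did not overlap for 46.2% of genes in A549 and 45.9% in SW780.

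The lines share no arrays, so each could be read at the genes called in the other, although both were fitted with the same pooled spread. Of the 260 genes called in A549, 242 had the same sign in SW780 (93.1%, against 56.9% of all genes tested), and for 223 (85.8%) the SW780 arrays of the duplexes did not overlap in that direction, against 29% of all genes. Their median difference was 0.72 in A549 and 0.42 in SW780 in the direction seen in A549. Of the 382 genes called in SW780, 327 had the same sign in A549 (85.6%) and 265 did not overlap there in that direction (69.4%), with medians of 0.57 in SW780 and 0.22 in A549. The values in the calling line were selected for their size and those in the other line were not. Across all 14067 genes, which are not independent replicates, the differences of the lines had a Pearson r of 0.19. It was 0.86 across the 260 genes called in A549 and 0.71 across the 382 called in SW780, both sets chosen for size in 1 line.

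**Figure D1:**
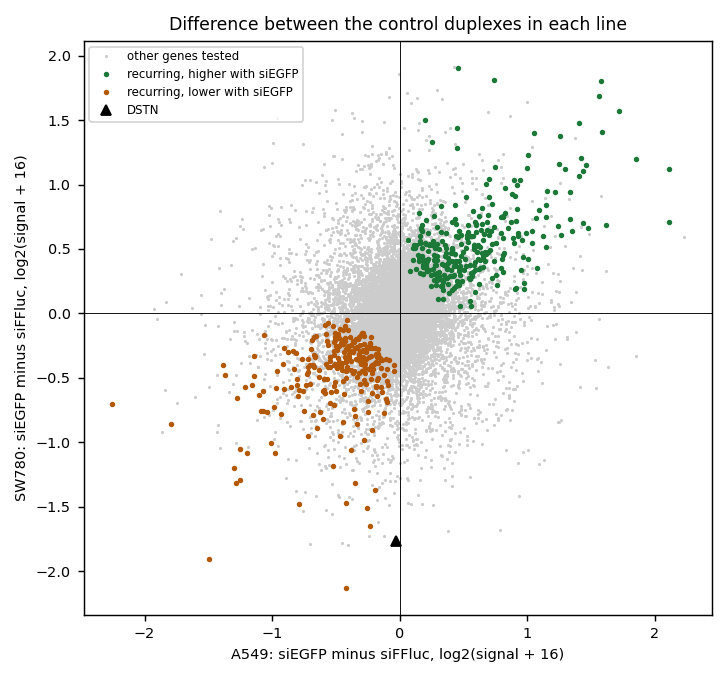
Difference between siEGFP and siFFluc, in log2(signal + 16), in A549 (horizontal) and in SW780 (vertical), 1 point per gene for the 14067 genes tested. The 300 recurring genes higher with siEGFP lie in the upper right and the 263 lower with siEGFP in the lower left, which their definition fixes, and DSTN (triangle) lies on the vertical axis near -1.76.

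Among genes that were lower with siFFluc, the 12 with the largest averaged difference had siFFluc signals of at most 50.2% of the siEGFP mean in A549 and 50.7% in SW780, and 10 of them read over 100 on all 8 arrays. MTRR, the reductase that keeps methionine synthase active, read 2182 and 1855 with siEGFP against 598 and 600 with siFFluc in A549, and 2798 and 2776 against 875 and 979 in SW780. The siFFluc arrays were thus the low ones in both lines, at 29.7% and 33.3% of the siEGFP mean, and the averaged difference was 1.65 ± 0.07 (SE; limma adjusted p = 1.82e-06). MBD6, a subunit of a histone H2A deubiquitinase complex, read 659 and 684 against 199 and 231 in A549 and 1114 and 962 against 338 and 240 in SW780. Its siFFluc signal was 32.0% of that with siEGFP in A549 and 27.8% in SW780 (1.69 ± 0.12, adjusted p = 3.08e-05). HGSNAT, a lysosomal acetyltransferase of heparan sulfate breakdown, read 1048 and 868 against 278 and 352 in A549 and 741 and 626 against 178 and 227 in SW780 (1.62 ± 0.12, adjusted p = 5.35e-05). CBX6, a Polycomb chromodomain protein, read 1534 and 1502 against 507 and 482 in A549 and 1836 and 1978 against 718 and 701 in SW780. DSP encodes desmoplakin, which ties desmosomes to keratin filaments, and it was among the brightest of these genes.

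DSP read 3302 and 3407 with siEGFP against 1288 and 1230 with siFFluc in A549, and 3679 and 3488 against 1295 and 1254 in SW780. No siFFluc array came near a siEGFP array, and the averaged difference was 1.44 ± 0.06 (adjusted p = 1.82e-06). CBX6 differed by 1.5 ± 0.07 with the same adjusted p. SLC39A1, a zinc importer, read 968 and 1099 against 171 and 299 in A549 and 629 and 717 against 294 and 305 in SW780. Its difference was 2.11 ± 0.21 in A549 and 1.12 ± 0.21 in SW780, and the lines did not differ past the threshold (adjusted p = 0.415). MAP3K3, a kinase of the MAP kinase cascades, read 490 and 540 against 126 and 135 in A549 and 391 and 457 against 151 and 202 in SW780 (1.53 ± 0.13, adjusted p = 1.04e-04). RCOR1, the CoREST corepressor, differed by 1.32 ± 0.07, C19orf12, a mitochondrial membrane protein, by 1.31 ± 0.07, and RPIA, an isomerase of the pentose phosphate pathway, by 1.31 ± 0.08. These 3 genes had siFFluc signals between 36.0% and 44.7% of those with siEGFP in either line.

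The remaining 2 of the 12 were dim. ARID3B, a DNA-binding protein and a known let-7 target, read 151 and 198 against 25.2 and 30.6 in A549, but 126 and 58.2 against 47.7 and 45.7 in SW780, where its own difference did not pass (adjusted p = 0.34). CPSF1, a subunit of the cleavage and polyadenylation factor, stayed under 76 on all 8 arrays.

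Among genes lower with siEGFP, CDS1 differed most. It encodes a CDP-diacylglycerol synthase, which makes the precursor of phosphatidylinositol. CDS1 read 103 and 89.2 with siEGFP against 316 and 283 with siFFluc in A549, and 1073 and 1058 against 3727 and 4355 in SW780. The gene was much brighter in SW780 under either duplex, and the siEGFP signal was 32.0% of that with siFFluc in A549 and 26.4% in SW780 (-1.70 ± 0.09, adjusted p = 4.99e-06). CDS2, the second CDP-diacylglycerol synthase gene, was also among the 12. It read 1128 and 1112 against 2198 and 2350 in A549 and 672 and 627 against 1272 and 1361 in SW780, 49.3% in each line (-1.01 ± 0.07, adjusted p = 1.70e-05). When all kept probe sets of a gene were averaged, the averaged CDS2 difference shrank to -0.43, that of HGSNAT to 0.66 and that of RCOR1 to 0.95, and none of these 3 passed in either line alone.

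ZFP91, a zinc finger ubiquitin ligase, read 1404 and 1472 with siEGFP against 3552 and 3510 with siFFluc in A549 and 1607 and 1620 against 4226 and 3881 in SW780. Its averaged difference was -1.30 ± 0.06 (adjusted p = 1.82e-06), and the lines were nearly alike at -1.29 and -1.32. SERPINH1, the collagen chaperone HSP47, read 1076 and 1251 against 2897 and 2689 in A549 and 919 and 975 against 2580 and 2122 in SW780 (-1.27 ± 0.08, adjusted p = 1.43e-05). SLC7A11, the cystine importer xCT, read 3136 and 3047 against 7854 and 7373 in A549 and 2781 and 3216 against 7335 and 6474 in SW780 (-1.25 ± 0.07, adjusted p = 4.99e-06). FBXW11, a ubiquitin ligase subunit, and PANX1, a membrane channel protein, differed by -1.15 ± 0.07 and -1.14 ± 0.07, with siEGFP signals at 41.5% to 47.9% of those with siFFluc. LAPTM5, a lysosomal membrane protein, differed by -1.03 ± 0.12 (adjusted p = 9.83e-04), at 91.3 and 90.8 against 197 and 192 in A549.

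LINC01875, SLC5A5, IL32 and NR4A1 completed the 12 and were dim in at least 1 line. IL32, a cytokine gene, read 441 and 505 against 620 and 658 in A549 and 6.0 and 32.1 against 145 and 110 in SW780, where its call was made (-2.13 ± 0.32, adjusted p = 0.0108). NR4A1, an immediate-early nuclear receptor, passed in neither line alone. Of the 24 genes named in both directions, 18 kept the averaged call under every alternative tried. The exceptions were ARID3B, CPSF1, LINC01875, SLC5A5, IL32 and NR4A1, the dim ones.

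**Figure D2:**
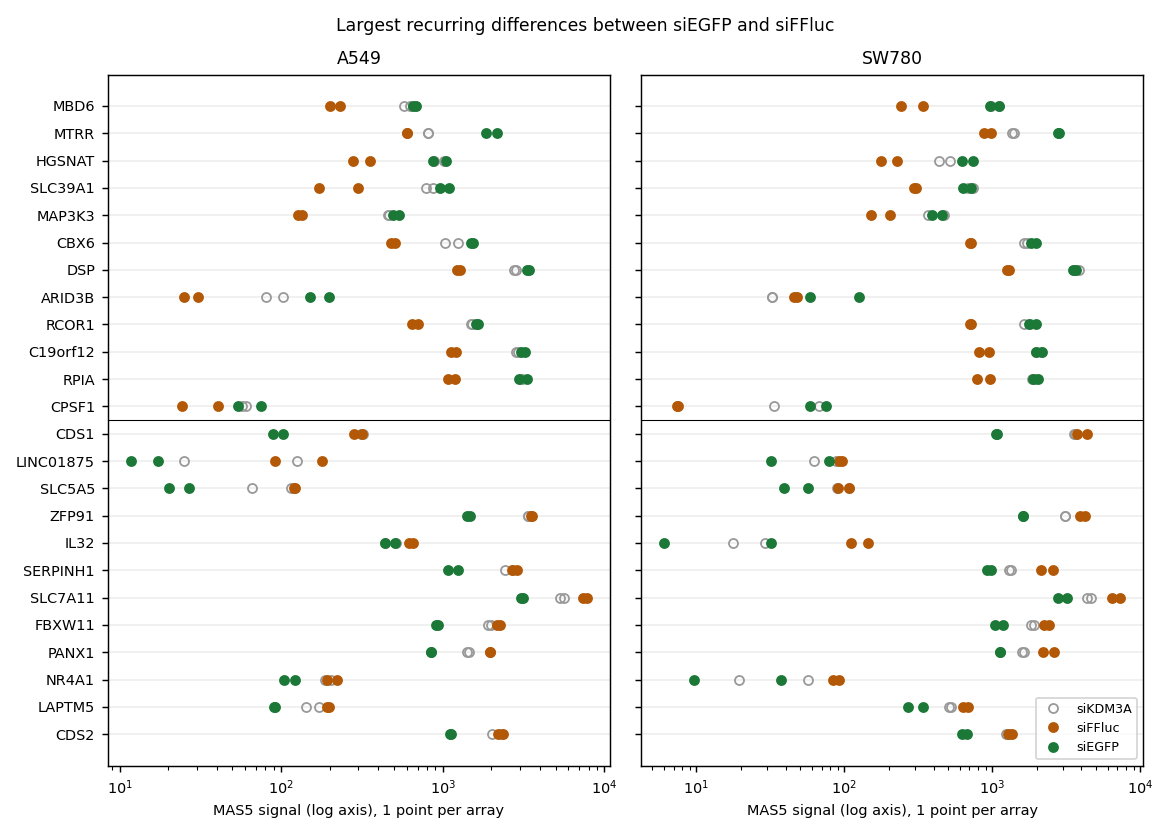
MAS5 signal (log axis) of the 12 recurring genes most higher (top) and the 12 most lower (bottom) with siEGFP, 1 point per array, in A549 (left) and SW780 (right). Green points (siEGFP) lie to the right of orange points (siFFluc) in the upper block and to the left in the lower block in both lines, which the rule requires, and open grey points are the siKDM3A arrays, which were not used to choose the genes.

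Other probe sets, which the choice of members did not use, gave a second reading of many genes. The 563 recurring genes had 705 further kept probe sets in 364 genes, and 448 of them (63.5%) had the sign of the member's difference in both lines, against 36.8% over 12998 further probe sets of all genes. The opposite sign in both lines was seen in 9.65%, against 20%. Probe sets of 1 gene are measured on the same arrays and are not independent. The second MTRR probe set differed by 1.70 in A549 and 1.64 in SW780, and the second MBD6 probe set by 1.46 and 1.56. A further CDS1 probe set differed by -1.02 and -1.86 and the second CBX6 one by 1.46 and 1.19. HGSNAT was less even: a probe set near a signal of 200 differed by 0.02 in A549 and -0.23 in SW780. For SLC7A11, further probe sets differed by -0.27 and -0.33, and by -1.22 and -1.04. Those of PANX1 differed by -0.30 and -0.36, by -1.57 and -0.93, and by -0.59 and -0.61. That of LAPTM5 differed by -0.13 and -0.40. A dim CDS2 probe set differed by 0.32 and 0.77, while its other further probe sets were lower with siEGFP in both lines.

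The siKDM3A arrays gave the level of the same genes with another duplex, with no test, because that duplex has its own target. They share no array with the fit. Of the 300 genes higher with siEGFP, the siKDM3A mean was nearer to siEGFP in both lines for 199, nearer to siFFluc for 44 and split between the lines for 57. Of the 263 genes lower with siEGFP, it was nearer to siEGFP for 80, nearer to siFFluc for 107 and split for 76. Over all genes tested these shares were 30.9%, 21.4% and 47.7%. Among differences of 2-fold or more, the siKDM3A level lay nearer to siEGFP in both lines for 20 of the 27 higher genes and nearer to siFFluc for 7 of the 12 lower genes. CDS1 and DSP were clear cases. CDS1 read 313 and 319 with siKDM3A in A549 and 3578 and 3630 in SW780, close to siFFluc, and DSP read 2841 and 2760 in A549 and 3828 and 3571 in SW780, close to siEGFP. MTRR lay between, at 810 and 815 in A549 and 1358 and 1394 in SW780, nearer to siFFluc in both lines. SLC7A11 also lay between the control duplexes, at 5341 and 5595 in A549 and 4374 and 4640 in SW780.

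Of 14 tested sensor and adaptor genes for double-stranded RNA, 1 was higher and 1 lower with siEGFP, where 2.27% and 2.03% of all genes were. TRIM25, the ubiquitin ligase that assists RIG-I, read 3956 and 4125 with siEGFP against 2012 and 1998 with siFFluc in A549 and 3065 and 3576 against 1413 and 1392 in SW780. The siFFluc signal was 49.6% and 42.2% of that with siEGFP (1.12 ± 0.06, adjusted p = 7.37e-06), and siKDM3A arrays read 4003 and 4195 in A549 and 3296 and 3520 in SW780. A second, dimmer TRIM25 probe set differed by 0.99 in A549 and 0.18 in SW780. With all kept probe sets averaged, TRIM25 did not pass in SW780 alone. EIF2AK2, which encodes PKR and is itself induced by interferon, read 2636 and 2712 against 3213 and 3145 in A549 and 1643 and 1745 against 3023 and 2773 in SW780. Arrays did not overlap in either line, and its averaged difference was -0.51 ± 0.06 (adjusted p = 7.59e-04), although A549 alone did not pass (adjusted p = 0.233). Among 14 genes of the RNA interference machinery, DICER1, the nuclease that makes small RNAs, was the 1 that passed (4.29% of all genes did), at 4134 and 4000 against 3331 and 3151 in A549 and 5716 and 5700 against 4914 and 4912 in SW780 (0.27 ± 0.05, adjusted p = 0.0154). The DICER1 difference ran from 0.24 to 0.30 over the alternatives. DICER1 did not pass with all kept probe sets averaged or without the variance trend. Nor did it pass when either array of A549 siEGFP, A549 siFFluc or SW780 siEGFP was left out. DICER1 and ARID3B were also the 2 of 16 tested let-7 targets that passed, both higher with siEGFP, and the list's median was 0.01.

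Members of the interferon-stimulated list, which holds neither EIF2AK2 nor TRIM25, were lower with siEGFP where they differed. TRIM25, counted with the sensors above, was higher. Of 34 tested, 7 passed the averaged threshold, all lower with siEGFP (285 of 14067 genes, 2.03%, were lower), and the list's median was -0.19 against -0.01 over all genes, with 31 of the 34 below 0. The 7 were IFI27, IFIT1, IFIT2, IFIT3, MX1, OAS2 and OASL, of which OAS2 and OASL did not pass when all kept probe sets were averaged. IFIT2, which binds foreign RNA, read 871 and 830 with siEGFP against 1373 and 1422 with siFFluc in A549 and 568 and 752 against 871 and 867 in SW780 (-0.55 ± 0.09, adjusted p = 0.00776). MX1, an antiviral GTPase, read 2234 and 2374 against 2903 and 2473 in A549 and 87.6 and 121 against 223 and 192 in SW780. The arrays did not overlap in either line, but in A549 the gap was small (-0.22, adjusted p = 0.707), while in SW780 MX1 passed (-0.91 ± 0.16, adjusted p = 0.0196). IFIT1, which recognises unmodified RNA ends, read 6934 and 7068 against 8559 and 8480 in A549 and 191 and 186 against 256 and 298 in SW780 (-0.40 ± 0.07, adjusted p = 0.00923). IFI27 did not differ past the threshold in A549, where it read 5342 and 5506 against 5343 and 5319, and read 55.8 and 48.5 against 99.8 and 101 in SW780 (-0.77 ± 0.11, adjusted p = 0.00812). No siFFluc array carried the highest level of these genes in SW780: with siKDM3A, IFIT1 read 1077 and 1032, MX1 568 and 558 and IFI27 394 and 425. The count of 7 fell to 1 without the second A549 siEGFP array or either A549 siFFluc array, to 2 without the first A549 siEGFP array and to 3 without either SW780 siEGFP array. It was 12 lower and 1 higher without the second SW780 siFFluc array and 0 in a fit without the variance trend, while the median stayed between -0.23 and -0.17.

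NF-κB and inflammatory genes were also lower with siEGFP where they differed. Of 23 tested, 4 were lower with siEGFP on average and none higher (2.03% and 2.27% of all genes). The list's median was -0.31, with 22 of 23 below 0, where 7259 of 14067 genes were. In A549 alone 5 were lower (median -0.27), where 121 of 14067 genes (0.86%) were. In SW780 none passed in either direction (median -0.14), and 16 of 23 lay below 0, where 7058 of 14067 genes did. The test of the difference between lines passed for none of the 23. TNFAIP3 and NFKBIA are feedback inhibitors of NF-κB. TNFAIP3 read 1396 and 1315 with siEGFP against 1958 and 1876 with siFFluc in A549 and 1309 and 1357 against 1402 and 1613 in SW780 (-0.33 ± 0.07, adjusted p = 0.0235). NFKBIA read 4563 and 4867 against 5381 and 6019 in A549 and 4377 and 4194 against 5852 and 5106 in SW780 (-0.31 ± 0.06, adjusted p = 0.0264). The cytokine genes IL1A and IL1B were lower with siEGFP in A549, where IL1A read 605 and 673 against 941 and 1151 and IL1B 464 and 492 against 730 and 688. In SW780 both were brighter and the duplexes overlapped, with IL1A at 3680 and 3695 against 3502 and 3842. When all kept probe sets were averaged, the averaged IL1A difference was -0.01 (adjusted p = 0.993), and NFKBIA and IL1B did not pass either. The averaged count of 4 was 0 without either A549 siEGFP array, the second A549 siFFluc array or the variance trend, 1 without the first A549 siFFluc array or either SW780 siEGFP array, and 8 lower and 1 higher without the second SW780 siFFluc array. The A549 count of 5 lay between 0, without the second A549 siEGFP array, and 7, without either SW780 siFFluc array.

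**Figure D3:**
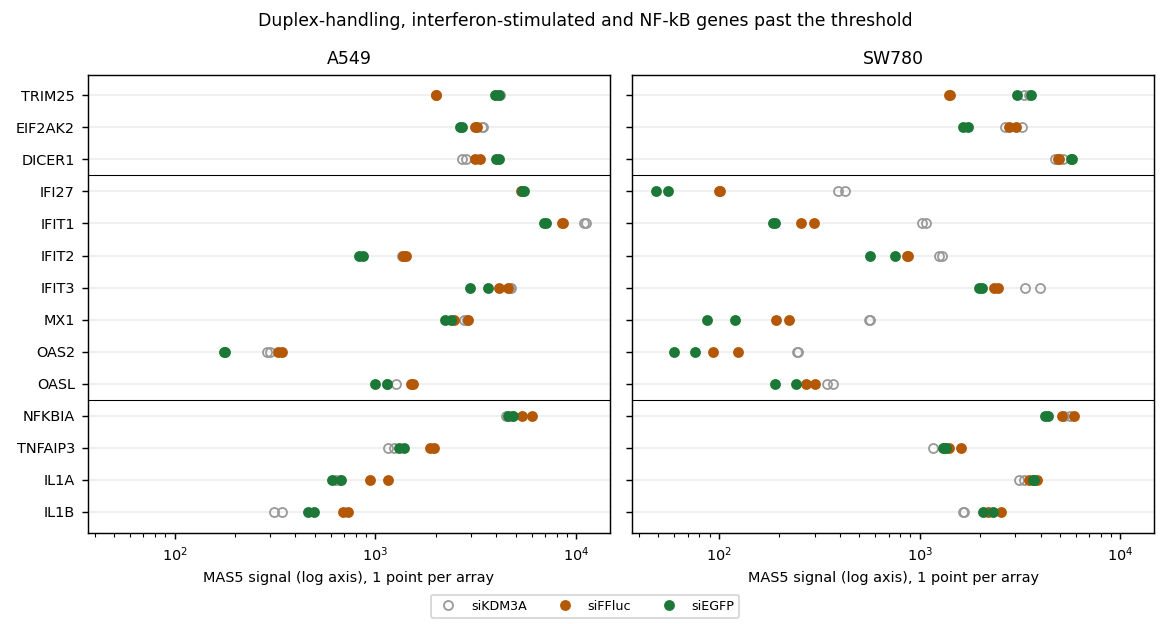
MAS5 signal (log axis), 1 point per array, of genes that passed the averaged threshold among duplex-handling genes (top block), interferon-stimulated genes (middle) and NF-κB and inflammatory genes (bottom), in A549 (left) and SW780 (right). TRIM25 is lower with siFFluc (orange) in both lines, the middle block is mostly lower with siEGFP (green), and the siKDM3A arrays (open grey) are the highest for IFIT1, MX1 and IFI27 in SW780.

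For some other pathway lists more members passed in SW780 than in A549, although the test of the difference between lines passed for no member of the NRF2, heat shock or ribosomal lists. Of 25 tested NRF2 targets, the genes of the antioxidant response, 6 were lower with siEGFP on average (2.03% of all genes were), 1 in A549 (SLC7A11; 0.86%) and 11 in SW780 (1.36%), with medians of -0.02 in A549 and -0.37 in SW780. AKR1C3, an aldo-keto reductase, read 29961 and 26598 with siEGFP against 39883 and 37906 with siFFluc in SW780 and 24303 and 24479 against 25634 and 23876 in A549. Many of these genes are very bright, and in SW780 the 2814 brightest of all genes tested had a median difference of -0.06, against 0.04 for the 2813 next in brightness. The 20 ribosomal protein genes, of which 1 passed, had a median of -0.33 in SW780 and -0.00 in A549. After quantile normalization that median was 0.02 in SW780, the NRF2 median was -0.13 and 4 NRF2 targets passed there. Without the second SW780 siFFluc array 19 passed, without the first SW780 siEGFP array 7, without the first SW780 siFFluc array or either A549 siEGFP array 3, and without any of the other 3 arrays 1. The part of the bright-end difference in the other calls was not tested. Of 11 heat shock chaperones, BAG3 and HSPB1 were lower with siEGFP in SW780 (1.36% of all genes were), with a list median of -0.33 that became -0.04 after quantile normalization, when 1 of them passed. Their count of 2 was 5 without the second SW780 siFFluc array, 0 without the second SW780 siEGFP array and 1 without any other.

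DNA replication genes were higher with siEGFP where they differed, with 8 of 43 higher and 1 lower on average, against 2.27% and 2.03% of all genes. Their median was 0.13, and the counts were 0 in A549 and 6 higher and 1 lower in SW780 (1.36% of all genes in each direction), with none past the test of the difference between lines. MCM5, a subunit of the replicative helicase, read 3514 and 3365 against 2746 and 2866 in A549 and 2958 and 2912 against 2248 and 2053 in SW780 (0.37 ± 0.06, adjusted p = 0.00546). ORC1, of the origin recognition complex, read 651 and 646 against 390 and 406 in SW780 and 685 and 690 against 594 and 618 in A549 (0.43 ± 0.08, adjusted p = 0.013). The 1 lower gene was RRM2, a ribonucleotide reductase subunit and one of the brightest of the list, at 20126 and 18214 against 25439 and 23554 in SW780. When all kept probe sets were averaged, GINS2, MCM4 and RFC3, which were among the 8 higher genes, did not pass. Without the variance trend ORC1 alone of the 8 kept its averaged call, and MCM5, RFC2, GINS2, MCM4, MCM7, RFC3 and RPA2 lost theirs. With median scaling MCM4, MCM7 and RFC3 did not pass. The averaged count of 8 lay between 1 and 12 when single arrays were left out: it was 1 without the first A549 siFFluc or the second SW780 siEGFP array, 2 without the second A549 array of either duplex or the first SW780 siEGFP array, 4 without the first A549 siEGFP array and 12 without the second SW780 siFFluc array. Among 38 mitosis genes, TOP2A and ANLN were higher and HMMR lower with siEGFP, where 2.27% and 2.03% of all genes were. TOP2A, a topoisomerase of dividing cells, passed in each line (0.41 ± 0.05, adjusted p = 0.00169). With all kept probe sets averaged, ANLN and HMMR did not pass, and TOP2A passed in neither line alone.

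**Figure D4:**
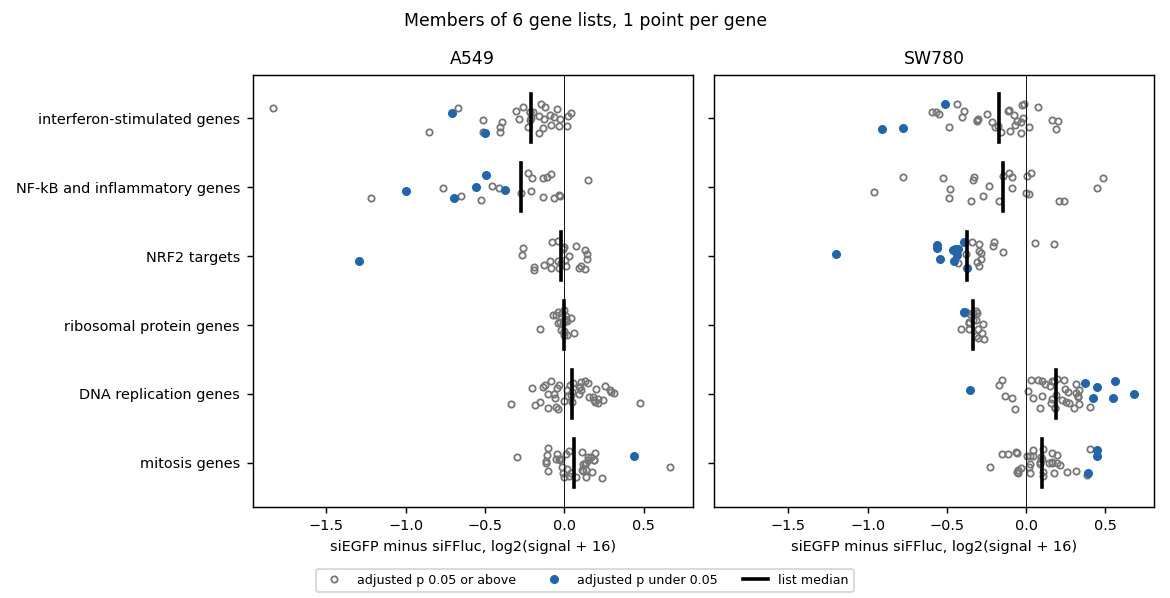
Difference between siEGFP and siFFluc, in log2(signal + 16), for tested members of 6 gene lists in A549 (left) and SW780 (right), 1 point per gene, filled where the line's adjusted p was under 0.05; vertical spread within a list has no meaning. Bars are list medians: interferon-stimulated genes lie at -0.21 and -0.17, while NRF2 targets and ribosomal protein genes lie near 0 in A549 and at -0.37 and -0.33 in SW780.

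In the remaining lists at most 5 members passed on average, where 4.29% of all genes did, 2.27% higher and 2.03% lower with siEGFP. The share was above that of all genes in the lists with an averaged call, up to 5 of 28 hypoxia targets. Some lists had calls in both directions, while the endoplasmic reticulum chaperone, TGF-β and lysosome lists had calls lower with siEGFP only. Some genes passed in each line. TRIB3, a pseudokinase induced in the integrated stress response, read 3792 and 3741 against 2285 and 2399 in A549 and 2737 and 2462 against 1545 and 1774 in SW780 (0.66 ± 0.07, adjusted p = 3.07e-04), while SLC7A11 and ATF3 of the same list were lower with siEGFP, 3 of 28 in all. FOSL1, an AP-1 subunit induced by ERK, read 3646 and 3871 against 2193 and 2284 in A549 and 1792 and 1896 against 1268 and 1051 in SW780 (0.71 ± 0.07, adjusted p = 3.39e-04). HBEGF, a ligand of the EGF receptor, was also higher with siEGFP (0.55 ± 0.09), and DUSP5 and ATF3 were lower, 4 of 29 ERK-responsive genes. FAS, a death receptor and p53 target, differed by 0.61 ± 0.08 (adjusted p = 0.00137), and GDF15, another of the 22 p53 targets, by -0.45 ± 0.07. NDRG1 led the hypoxia list, at 1620 and 1615 against 2405 and 2533 in A549 and 534 and 577 against 1041 and 945 in SW780 (-0.71 ± 0.07, adjusted p = 2.24e-04). PFKFB3, BNIP3L and SLC2A1 were lower too and INSIG2 higher (0.78 ± 0.10), 5 of 28. TGFBR1, a TGF-β receptor, differed by -0.57 ± 0.07 (adjusted p = 8.96e-04), with SKIL the other of 29 in that list. HSPA5, DNAJB9 and HERPUD1 were lower with siEGFP among 19 endoplasmic reticulum chaperone genes. Of these 19, 17 lay below 0, with a median of -0.19 against -0.01 over all genes. SQSTM1 was lower among 22 lysosome genes. When all kept probe sets were averaged, TGFBR1 (-0.27), SKIL (-0.20), ATF3 (-0.05), SQSTM1 (-0.11) and SLC2A1 (-0.35) no longer passed. The chaperone count of 3 was 9 without the second SW780 siFFluc array and between 0 and 4 without any other, and the 4 lower hypoxia targets were 8 and between 2 and 4. None of 18 cholesterol synthesis genes and none of 31 respiratory chain genes passed on average, nor did any of the tested leukocyte (3), fibroblast (3), lung (5) or urothelial (14) markers.

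Many genes passed the threshold in 1 line and not in the other, which does not by itself show a difference between the lines. Of the genes called in A549, 145 were not called in SW780. Of these 127 had the same sign in SW780, against 56.9% of all genes, and for 108 the arrays did not overlap in that direction, against 29%. Their median was 0.65 in A549 and 0.24 in SW780. Of the genes called in SW780, 267 were not called in A549, with 212 of the same sign, 150 without overlap and medians of 0.53 in SW780 and 0.11 in A549. An unadjusted p under 0.05 for the difference between lines was reached by 90 of the 145 and 193 of the 267, genes that were chosen because 1 line passed. The difference between the lines, tested directly as SW780 minus A549, passed for 1 gene of 14067 (0.00711%), with 1340 genes at an unadjusted p under 0.05 (9.53%). The rule for a difference seen in 1 line, a call in that line and a call of the difference, was met by no gene in A549 and in SW780 by DSTN alone, which had been kept by the filter on dim genes through its A549 signal and so is not read here as a difference of the duplexes in SW780. Without the second SW780 siFFluc array the difference passed for 219 genes, 34 of which met the rule in A549 and 193 in SW780, and without any other single array it passed for 0 to 3.

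DSTN, which encodes the actin-severing protein destrin, was among the brightest genes of A549, at 24306 and 23428 with siEGFP and 24847 and 23976 with siFFluc. In SW780 the same probe set read 1.5 and 1.0 with siEGFP and 38.2 and 47.3 with siFFluc, and the siKDM3A arrays read 2.9 and 35.4. The SW780 signals are all near the lower end of the scale, where they give no measured ratio, and a second DSTN probe set read 17.2 to 24.8 on the same 4 arrays. The fitted SW780 value, -1.76 on log2(signal + 16), ran from -4.28 to -0.71 over the alternatives. Its error was pooled with that of the bright A549 arrays, and with SW780 fitted alone the adjusted p was 0.228.

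CXCL8, EREG and CCNE2, chosen after their values were seen, ran in opposite directions in the lines at the probe set used, without passing the test of the difference. CXCL8, the neutrophil chemokine interleukin-8, read 7637 and 6265 with siEGFP against 14893 and 12828 with siFFluc in A549 (50.1% of the siFFluc mean, adjusted p = 0.00315), but 4411 and 3778 against 3305 and 2706 in SW780 (0.45 ± 0.13, adjusted p = 0.104). No array of 1 duplex overlapped the other in either line, and the difference between the lines had an adjusted p of 0.0947. EREG, an EGF receptor ligand, differed by -0.25 in A549 and 0.58 in SW780 and CCNE2, a cyclin, by -0.42 and 0.32, each with an adjusted p of 0.146 for the difference between lines. The further probe sets of CXCL8 and CCNE2 had the same signs in each line. That of EREG did not, at 0.71 in A549 and 0.01 in SW780. GDF15, a stress-induced cytokine, had the same sign in both lines and read 1355 and 1580 against 2545 and 2717 in A549 and 1248 and 1380 against 1407 and 1324 in SW780. Its duplexes overlapped in SW780, and the difference between the lines had an adjusted p of 0.267.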

How the data were processed

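Total RNA of 12 samples was hybridised to Affymetrix U133 Plus 2.0 arrays. The deposited intensities are MAS5 signals per the submitters' processing notes, for which no version is given in the sources used here. Of 54675 probe sets, 62 controls were removed; of the other 54613, 41091 carried 1 gene symbol, 1801 several and 11721 none in an annotation of 2016, and 41037 were matched to RefSeq (GRCh38.p14) for current symbols. Probe sets with a mean signal over the 8 control-duplex arrays of at least the 40th percentile (33.7) were kept (32772), and the probe set of highest mean stood for each of 14067 genes, 7088 of which had others.

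Group means of log2(signal + 16) were fitted with limma 3.58.1 (R 4.3.3), with a variance trend and 4 residual degrees of freedom. The procedure was tested on simulated data. Named genes were the 12 largest recurring differences in each direction, genes seen in 1 line by the rule given, and up to 4 members of smallest p per list; other called list members and CXCL8, EREG, CCNE2 and KDM3A were added. The members, the 23 lists, tests and motifs were chosen with earlier results of these data known. Alternatives changed the pseudocount, filter, scaling, summary of probe sets, variance trend, arrays in the fit and replicate block, or left out single arrays. Same-numbered replicates were checked for pairing: their deviations correlated at 0.00741 in A549 and -0.0210 in SW780. Figures were drawn with matplotlib 3.10.9 (Python 3.11.15).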

Additional observations from a re-analysis of the deposited data

Results flagged for a closer look

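DSTN was singled out because its difference between the control duplexes, siEGFP minus siFFluc, was not the same in the lines: SW780 minus A549 was -1.73, the 1 gene of 14067 for which limma's test of that difference passed. All 4 SW780 signals behind it lay between 1.0 and 47.3, against at least 23428 in A549. The gene passed the filter on dim genes through A549 alone, and the fitted SW780 difference ran from -4.28 to -0.71 over the alternatives. The test no longer passed with a pseudocount of 64, with the mean of all kept probe sets, without the variance trend, with all 12 arrays in the fit, or without any 1 of the 6 arrays other than those of SW780 with siFFluc, and adjusted p-values over all alternatives ran from 1.06e-04 to 0.476. The gene was not tested where a mean signal of 100 in each line was required.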

How the results depend on the processing

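No named gene changed the sign of a called difference under any alternative. The alternatives chosen after seeing the data were a mean signal of at least 100 in each line, and each line fitted alone. Counts are of genes past the threshold. In SW780 the count of 382 became 219 with no filter, 214 with quantile normalization, 249 with the mean of all kept probe sets, 51 without the variance trend, 785 with all 12 arrays and 44 fitted alone. In A549 the count of 260 became 56 without the trend and 411 with 12 arrays, and 385 fitted alone. The averaged count of 604 became 183 and 967 under those settings, the 563 recurring genes 177 and 846, and the 115 called in each line alone 24 and 177, or 73 with the mean of probe sets. Median scaling gave 613 averaged calls, of which 254 were higher and 359 lower with siEGFP, against 319 and 285. The difference between lines passed for 0 genes with a pseudocount of 64, without the trend or at a signal of 100, for 2 with quantile normalization or the mean of probe sets and for 3 with 12 arrays. Genes seen in 1 line were then 0 in SW780 with the first 3 of these, 1 in A549 with quantile normalization, 2 in A549 with the mean of probe sets, and 2 in A549 and 3 in SW780 with 12 arrays. Replicate numbers did not pair the arrays; with a replicate block within line the counts were 501 averaged, 161 in A549, 422 in SW780, 439 recurring and 81 in each line, the difference passed for 2 genes, and 1 was seen in A549 alone and 2 in SW780 alone. Leaving out single arrays gave 253 to 1511 averaged calls, 86 to 414 in A549, 52 to 1596 in SW780, 0 to 219 for the difference, 249 to 1143 recurring, 33 to 176 in each line, and 0 to 34 and 0 to 193 seen in A549 and in SW780 alone. A group with 1 array left was assumed to vary like the others. Signals under about 100 limit single-gene calls, and the cause of these shifts was not tested.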
